A study of Mus musculus with 9 samples.

Results

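The imprinted growth genes are a set of mouse genes that, in most tissues, are transcribed from only the maternal or only the paternal chromosome, and that act on the growth of the embryo, the placenta and tissue precursors. The set was a list of 10 symbols: Grb10, Ndn, Peg3, Peg10, Sgce, Cdkn1c, H19, Dlk1, Mest and Plagl1. Each was represented by its probe set that carried exactly 1 gene symbol, taking the one with the highest mean over 9 arrays where there was a choice. Of the 10 genes, 9 were measured, out of 19661 genes tested, and each of the 9 had a single probe set. H19 had no probe set that carried its symbol alone and was not analysed here.

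Myoblasts, the proliferating precursors of skeletal muscle fibres, came from Balb/c mouse muscle. The culture medium was F10 supplemented with bFGF (4 ng/ml), a mitogen for myoblasts, and serum (20% FBS). One group overexpressed Pax7, the next overexpressed Pax3 and the last, the control, carried an empty vector, with 3 arrays in each. Pax3 and Pax7 are related transcription factors with a paired domain and a homeodomain that act in muscle precursors. The promoter of the vectors and whether a group was 1 clone or a pool were not given in the sources used here. Values were log2 intensities, 1 per probe set and array, so a difference of 1 is a factor of 2 in intensity. It was not stated whether a group's samples were separate cultures. The p-values therefore cover the spread between 3 samples, part or all of which may be technical.

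Imprinted genes lie in clusters, and in each cluster a control region that is methylated in the egg or in the sperm decides which parental copy is silent. Many imprinted genes are strongly transcribed in the fetus and decline after birth, and several stay on in muscle precursors, where products such as Cdkn1c, Igf2 and Dlk1 act on division, survival and differentiation. Plagl1, a zinc-finger transcription factor, regulates several of the others in the mouse, which is why they are described as a network. The arrays read total RNA and did not separate the maternal and paternal copies.

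The overexpressed genes followed the labels. Pax7 averaged 12.28 ± 0.03 in Pax7 arrays, 8.18 ± 0.06 in Pax3 arrays and 10.51 ± 0.08 in control arrays (SD, n = 3 each), and Pax3 averaged 6.82 ± 0.04 in Pax7 arrays, 11.05 ± 0.05 in Pax3 arrays and 5.83 ± 0.07 in control arrays. Myod1, the transcription factor that defines the myoblast lineage, lay between 12.16 and 12.64 on all 9 arrays, and was lower than in control by a difference of -0.43 ± 0.043 in Pax7 arrays (limma adjusted p = 8.68e-06). Of 9 measured myoblast markers, 3 rose and 5 fell in Pax7 arrays (43.2% of all genes passed at a limma adjusted p under 0.05). In Pax3 arrays 2 of these markers rose and 5 fell (39.6% of all genes passed). Pax7 itself is counted among these markers, at 1.77 ± 0.053 in Pax7 and -2.33 ± 0.053 in Pax3 arrays. Its rise in Pax7 arrays is that of the overexpressed gene and says nothing on cell identity. Of the other markers Myf5, a myogenic transcription factor, rose by 2.02 ± 0.056 in Pax7 and 1.97 ± 0.056 in Pax3 arrays. Des, which encodes desmin, changed by -1.33 ± 0.042 in Pax7 and by -0.52 ± 0.042 in Pax3 arrays. The 10 fibroblast markers listed held a summed linear intensity of 731 to 765 in Pax7 arrays, 816 to 931 in Pax3 arrays and 856 to 899 in control arrays. Of those 10, 7 did not pass in Pax7 arrays against control and 8 did not pass in Pax3 arrays against control. Xist, the RNA of the inactive X chromosome, was higher than in control by 6.96 ± 0.064 log2 units in Pax7 arrays and by 7.20 ± 0.064 in Pax3 arrays, whereas the Y-linked gene Eif2s3y differed from control by -5.70 ± 0.039 in Pax7 arrays and by -5.66 ± 0.039 in Pax3 arrays (difference ± SE, limma). The Y-linked Uty differed from control by -5.50 ± 0.067 in Pax7 and -5.42 ± 0.067 in Pax3 arrays, and Kdm5d by -4.02 ± 0.070 in Pax7 and -4.07 ± 0.070 in Pax3 arrays. Both overexpressing groups thus carried the transcripts of female cells and the control group those of male cells, so that the control cells appear to come from another animal, which the labels do not state. Every difference from control in the values below holds both the overexpression and this difference in origin, and the effects cannot be told apart. For Pax7 minus Pax3 the difference was -0.24 ± 0.064 for Xist and -0.04 ± 0.039 for Eif2s3y. In bulk RNA, fewer cells that express a gene and less of its RNA per cell cannot be told apart.

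All 9 measured members passed the test in Pax7 arrays against control: Grb10 and Dlk1 were higher, and Ndn, Peg10, Mest, Sgce, Cdkn1c, Peg3 and Plagl1 were lower. A gene passed at a limma adjusted p under 0.05, with Benjamini-Hochberg adjustment over all genes tested, and by that rule 43.2% of all genes passed in this comparison, 21.6% higher and 21.5% lower. In Pax3 arrays against control, 8 of the 9 passed, with Grb10 higher, 7 lower and Dlk1 short of the threshold, against 39.6% of all genes, of which 19.8% were higher and 19.7% lower. Passing was thus common among all genes, and so was the separation of arrays. The arrays of the groups did not overlap for all 9 measured members in Pax7 against control (55.5% of all genes) and in Pax3 against control (45.1%). A limma call together with a difference of at least 1 log2 unit was reached by 6 of 9 members in Pax7 arrays, against 6.58% of all genes, and by 4 of 9 in Pax3 arrays, against 4.8%. Between Pax7 and Pax3 arrays 6 of 9 members passed, 1 higher and 5 lower in Pax7, against 16.9% of all genes (8.33% higher and 8.54% lower). These 6 were also the members whose arrays did not overlap, as they did not for 29.4% of all genes, and 2 of them differed by at least 1 log2 unit, against 0.895% of all genes. The median difference over the 9 members was -1.16 for Pax7 minus control, -0.53 for Pax3 minus control and -0.32 for Pax7 minus Pax3, where the medians over all genes were 0.027 for Pax7 minus control, 0.016 for Pax3 minus control and 0.0067 for Pax7 minus Pax3. The members were put together with results of these data known, so these shares describe them and are no test of the set. The comparisons of Pax7 and of Pax3 with control share the same 3 control arrays, and their values are given side by side.

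**Figure D1:**
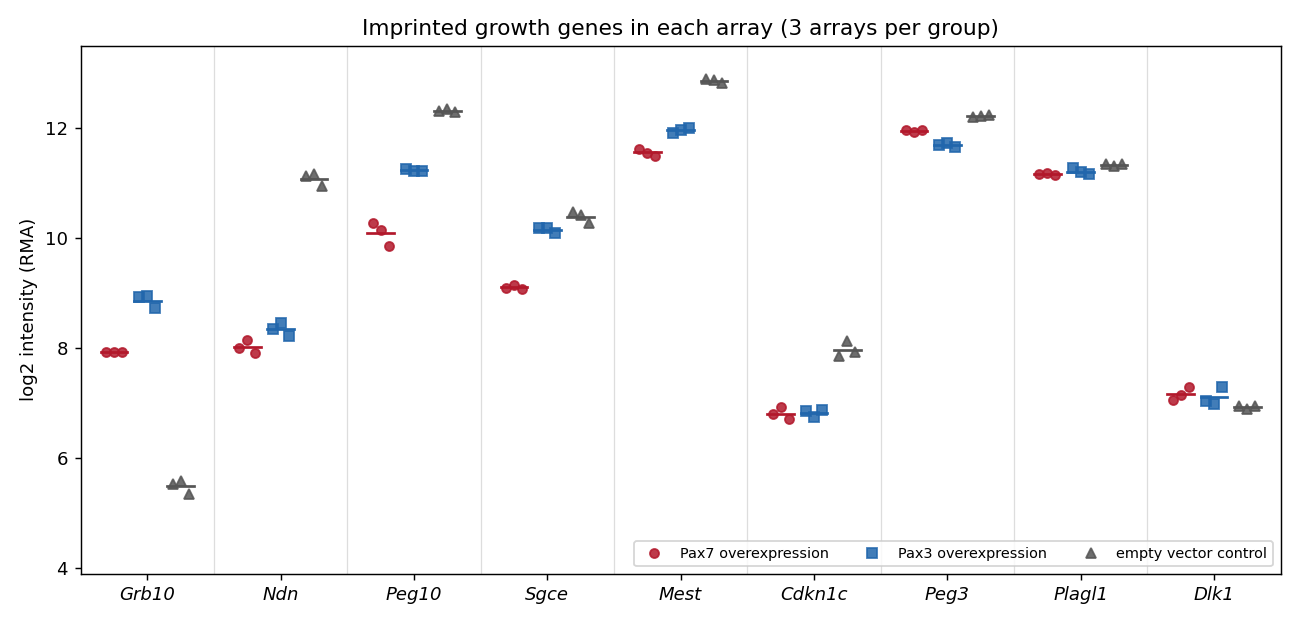
Log2 intensity (vertical axis) of the 9 measured imprinted genes (horizontal axis) on every array, with Pax7 (circles), Pax3 (squares) and control (triangles) from left to right within each gene; horizontal lines are means of 3 arrays. The Pax7 and Pax3 arrays of Grb10 lie far above control, those of Ndn, Peg10, Mest and Cdkn1c lie below control with no overlap, and Plagl1 and Dlk1 differ little between groups.

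Sorted by the parental copy that is active in most tissues, 7 measured members are paternally expressed and 2 maternally. Of the paternally expressed genes 6 fell in Pax7 arrays (21.5% of all genes) and 1, Dlk1, rose (21.6% of all genes), a call held in 11 of 20 settings. In Pax3 arrays 6 fell (19.7% of all genes) and Dlk1 did not pass. The maternally expressed pair moved apart: Grb10 rose and Cdkn1c fell in both comparisons.

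Grb10 encodes an adaptor protein that binds the insulin and IGF1 receptors and restrains growth, and its main promoter is transcribed from the maternal copy outside neurons. Of its 2 windows in the RefSeq promoter table, the CpG-rich one is shown because Grb10 is the member that rose most, with 250 bases before the start and 50 after it, from chr11:12037371-12037670 of GRCm38.p6, minus strand, 5′ to 3′. Capitals mark TGCCGC, the hexamer that Zfp57 binds when it is methylated, or its reverse complement.
Grb10: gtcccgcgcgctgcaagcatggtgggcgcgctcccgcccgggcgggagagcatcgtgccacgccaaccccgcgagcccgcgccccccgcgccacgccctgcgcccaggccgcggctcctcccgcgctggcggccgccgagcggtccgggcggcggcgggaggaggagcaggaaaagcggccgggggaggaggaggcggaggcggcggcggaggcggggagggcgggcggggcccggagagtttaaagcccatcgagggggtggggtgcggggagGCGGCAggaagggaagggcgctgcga
The 300-base window held 45 CpG dinucleotides, more than 98.1% of 32851 RefSeq promoter windows of this length, whose median was 7. It held 1 TGCCGC on either strand, as did 11.6% of all windows at least once, and no ATTA, the homeodomain core, which 58.0% of all windows held. The other window, at chr11:12027922-12028221, held 9 CpG, 1 ATTA and no TGCCGC, and which start was used in these cells was not tested. A match or its absence describes these letters only. Of the 10 listed genes, 6 had a window in the RefSeq table.

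Grb10 stood at 7.94, 7.94 and 7.94 in Pax7 arrays, 8.93, 8.96 and 8.72 in Pax3 arrays and 5.54, 5.58 and 5.34 in control arrays. Every overexpressing array lay above every control array, and every Pax3 array above every Pax7 array. The 3 Pax7 values were identical in the deposited table, as they were for 362 of all genes tested (1.84%), so the Pax7 arrays carry no information on the spread of this gene. The SD was 0.13 in Pax3 and 0.13 in control arrays. The fit pooled the groups and counted the Pax7 arrays as having no spread, so the errors and p-values of Grb10 may be too small. Grb10 was 5.46-fold higher in Pax7 arrays (2.45 ± 0.074 log2 units, limma adjusted p = 4.45e-10) and 10.4-fold higher in Pax3 arrays (3.38 ± 0.074, limma adjusted p = 7.44e-11) than in control. Its control mean of 5.49 lay below all array medians, which were 6.40 to 6.48, and whether that level was above background was not tested, so both folds depend on a dim control level. The difference of Pax7 from Pax3 arrays was -0.93 ± 0.074 (limma adjusted p = 8.13e-06).

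Among 31 measured binding partners and relatives of the members, 3 rose and 14 fell in Pax7 arrays (43.2% of all genes passed) and 3 rose and 15 fell in Pax3 arrays (39.6% of all genes) against control. Grb14, the closest relative of Grb10 and likewise an adaptor of the insulin receptor, was among those that rose. It stood at 9.74, 9.74 and 9.71 in Pax7 arrays, 9.37, 9.42 and 9.22 in Pax3 arrays and 7.66, 7.58 and 7.59 in control arrays, so that no arrays of different groups overlapped. The differences from control were 2.12 ± 0.055 for Pax7 and 1.73 ± 0.055 for Pax3 (limma adjusted p = 1.48e-10 and 1.19e-09), and Pax7 arrays exceeded Pax3 arrays by 0.39 ± 0.055 (limma adjusted p = 0.000491). In this pair the order of the overexpressing groups was therefore opposite: Grb10 was higher in Pax3 arrays and Grb14 in Pax7 arrays.

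Ndn encodes necdin, a MAGE-family protein that binds E2F1 and the p75 neurotrophin receptor, restrains division in neurons and promotes differentiation of mouse myoblasts, and it is transcribed from the paternal copy. Its RefSeq promoter window, chr7:62348027-62348326 of GRCm38.p6, plus strand, is shown as the start of the member that fell most. Capitals mark ATTA or its reverse complement.
Ndn: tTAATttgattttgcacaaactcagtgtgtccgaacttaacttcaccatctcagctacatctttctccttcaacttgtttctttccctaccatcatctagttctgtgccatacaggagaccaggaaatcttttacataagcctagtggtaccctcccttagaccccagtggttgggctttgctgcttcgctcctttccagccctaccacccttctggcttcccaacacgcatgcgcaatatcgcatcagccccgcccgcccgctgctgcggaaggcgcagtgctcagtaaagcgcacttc
The window held 11 CpG, 1 ATTA core at its upstream end and no TGCCGC.

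Ndn stood at 8.01, 8.15 and 7.92 in Pax7 arrays, 8.35, 8.45 and 8.23 in Pax3 arrays and 11.14, 11.17 and 10.95 in control arrays. Control arrays lay far above all others, and the Pax7 arrays lay below the Pax3 arrays with no overlap. Ndn was 8.35-fold lower in Pax7 arrays (-3.06 ± 0.080 log2 units, limma adjusted p = 1.58e-10) and 6.70-fold lower in Pax3 arrays (-2.74 ± 0.080, limma adjusted p = 6.12e-10). The difference of Pax7 from Pax3 arrays was -0.32 ± 0.080 (limma adjusted p = 0.0198). It missed the threshold without Pax3 array 1 (limma adjusted p = 0.0662), Pax3 array 2 (0.0766), Pax7 array 1 (0.068) or Pax7 array 3 (0.0882). Maged1, which encodes a MAGE relative that also binds the p75 receptor, changed by -0.67 ± 0.044 in Pax7 and by -0.47 ± 0.044 in Pax3 arrays. Dlx2, a homeodomain factor, changed by -0.54 ± 0.050 in Pax7 and by -0.60 ± 0.050 in Pax3 arrays.

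Of the other genes of the Ndn cluster on the list, 4 were measured. Magel2, the paternally expressed MAGE gene next to Ndn, differed from control by -0.05 ± 0.060 in Pax7 arrays and by -0.01 ± 0.060 in Pax3 arrays and passed in neither (limma adjusted p = 0.533 and 0.919). It lay between 5.75 and 5.97 on all 9 arrays, below all array medians of 6.40 to 6.48. Whether that level was above background was not tested, so a fall of Magel2 might not be seen. Atp10a, a phospholipid flippase at the far side of the cluster, rose by 1.11 ± 0.063 in Pax7 arrays and by 0.25 ± 0.063 in Pax3 arrays (limma adjusted p = 7.66e-08 and 0.00711). Together with Ndn, 2 of 5 measured genes of the cluster fell, 2 rose and 1 did not pass in either comparison. Among all genes, 43.2% passed in Pax7 and 39.6% in Pax3 arrays against control.

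Peg10 and Sgce lie head to head on chromosome 6 under 1 control region and are both transcribed from the paternal copy. Peg10 derives from a retrotransposon and is needed in the mouse placenta, and Sgce encodes epsilon-sarcoglycan, a membrane protein of the dystrophin complex. Peg10 stood at 10.29, 10.16 and 9.87 in Pax7 arrays, 11.26, 11.23 and 11.23 in Pax3 arrays and 12.31, 12.36 and 12.30 in control arrays. The groups formed separate steps, with control highest and Pax7 lowest, and Pax7 array 3 lay apart below its group. Peg10 was 4.65-fold lower in Pax7 arrays (-2.22 ± 0.086 log2 units, limma adjusted p = 3.21e-09) and 2.12-fold lower in Pax3 arrays (-1.08 ± 0.086, limma adjusted p = 1.65e-06) than in control. The difference of Pax7 from Pax3 arrays was -1.14 ± 0.086 (limma adjusted p = 5.83e-06).

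Sgce stood at 9.10, 9.15 and 9.07 in Pax7 arrays, 10.19, 10.19 and 10.09 in Pax3 arrays and 10.49, 10.42 and 10.29 in control arrays. The Pax7 arrays were well below the others, and the Pax3 arrays were just below control. Its difference from control was -1.29 ± 0.057 in Pax7 arrays (limma adjusted p = 9.49e-09) and -0.24 ± 0.057 in Pax3 arrays (limma adjusted p = 0.00578), and the difference of Pax7 from Pax3 arrays was -1.05 ± 0.057 (limma adjusted p = 5.43e-07). In Pax7 arrays both genes of the head-to-head pair thus fell by more than 1 log2 unit, whereas in Pax3 arrays Peg10 did and Sgce did not. Among other sarcoglycans, Sgca fell by 0.71 ± 0.056 in Pax7 arrays, and its Pax3 difference of -0.17 ± 0.056 (limma adjusted p = 0.0366) missed the threshold with only the 6 arrays compared (0.0546). It also missed it without control array 1, 2 or 3 (limma adjusted p = 0.064, 0.0815 and 0.103), Pax3 array 1 (0.132) or Pax7 array 2 (0.0541). Sgcb changed by -0.76 ± 0.049 in Pax7 and by -0.48 ± 0.049 in Pax3 arrays.

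Of 11 measured genes of the Peg10 and Sgce cluster, these members included, 2 rose and 5 fell in Pax7 arrays (43.2% of all genes passed). In Pax3 arrays 2 of the 11 rose and 4 fell (39.6% of all genes passed). Asb4, which encodes a subunit of a ubiquitin ligase and is maternally expressed, had the largest difference of them. It stood at 4.96, 5.20 and 5.02 in Pax7 arrays, 5.70, 5.77 and 5.74 in Pax3 arrays and 9.80, 9.78 and 9.91 in control arrays. Its differences from control were -4.77 ± 0.064 in Pax7 and -4.10 ± 0.064 in Pax3 arrays (limma adjusted p = 2e-12 and 8.29e-12). The Pax7 and Pax3 values of Asb4 lay below all array medians (6.40 to 6.48). That they were above background was not tested, so the sizes depend on a dim level. Casd1, a sialic acid acetyltransferase beside Sgce, differed by -0.21 ± 0.050 in Pax7 arrays, which passed, and by -0.05 ± 0.050 in Pax3 arrays, which did not (limma adjusted p = 0.006 and 0.528).

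**Figure D2:**
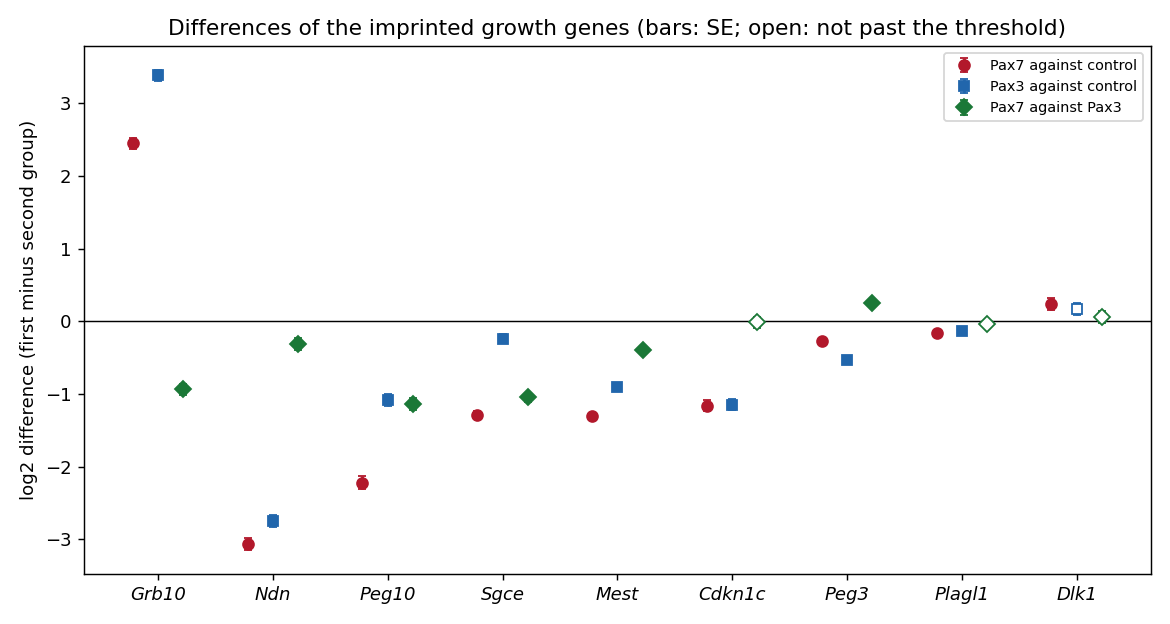
Log2 difference (vertical axis) of each measured imprinted gene (horizontal axis) for Pax7 minus control (circles), Pax3 minus control (squares) and Pax7 minus Pax3 (diamonds), with standard errors from limma; open symbols did not pass the adjusted threshold of 0.05. Peg10 and Sgce are the members that differ by more than 1 log2 unit between Pax7 and Pax3 arrays, and for Cdkn1c that difference lies near 0.

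Mest encodes a hydrolase of the endoplasmic reticulum, is expressed from the paternal copy in fetal mesoderm and carries the microRNA gene Mir335 in an intron. Of its 3 windows in the RefSeq promoter table, the one on chr6:30737800-30738099 of GRCm38.p6, plus strand, and both mature microRNAs, at chr6:30741314-30741336 and chr6:30741354-30741375 of the same build and strand, are shown because host and microRNA were both measured. In the promoter, capitals mark ATTA or TGCCGC on either strand, and in the microRNAs the seed, bases 2 to 8.
Mest: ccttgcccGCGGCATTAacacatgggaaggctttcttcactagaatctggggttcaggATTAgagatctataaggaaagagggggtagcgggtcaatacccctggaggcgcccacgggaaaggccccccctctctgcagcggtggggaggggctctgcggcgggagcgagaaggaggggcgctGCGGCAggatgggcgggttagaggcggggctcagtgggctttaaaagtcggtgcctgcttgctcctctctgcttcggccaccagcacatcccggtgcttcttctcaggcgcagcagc
mmu-miR-335-5p: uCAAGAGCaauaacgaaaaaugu
mmu-miR-335-3p: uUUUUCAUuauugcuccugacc
The promoter window held 17 CpG, 2 ATTA and 2 TGCCGC, and 1 of each overlapped near the upstream end. A second window starts 3 bases downstream and has the same counts, and the third, at chr6:30733256-30733555, held 8 CpG, 1 ATTA and no TGCCGC.

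Mest stood at 11.63, 11.56 and 11.50 in Pax7 arrays, 11.92, 11.97 and 12.00 in Pax3 arrays and 12.89, 12.89 and 12.83 in control arrays. The groups did not overlap, and control was highest. Mest was 2.48-fold lower in Pax7 arrays (-1.31 ± 0.046 log2 units, limma adjusted p = 1.45e-09) and 1.87-fold lower in Pax3 arrays (-0.91 ± 0.046, limma adjusted p = 4.26e-08), and the difference of Pax7 from Pax3 arrays was -0.40 ± 0.046 (limma adjusted p = 0.000116). The Mir335 probe set stood at 4.83, 5.01 and 4.93 in Pax7 arrays, 4.96, 5.13 and 4.97 in Pax3 arrays and 6.56, 6.57 and 6.30 in control arrays. Its Pax7 and Pax3 arrays overlapped, and both lay below control. Those Pax7 and Pax3 values lay below all array medians (6.40 to 6.48), and whether they were above background was not tested. A step of Mir335 between Pax7 and Pax3 arrays might therefore not be seen. The differences from control were -1.56 ± 0.080 in Pax7 and -1.46 ± 0.080 in Pax3 arrays (limma adjusted p = 3.37e-08 and 8.39e-08), and that of Pax7 from Pax3 was -0.10 ± 0.080 (limma adjusted p = 0.498). Whether this signal came from the microRNA, its precursor or unspliced Mest RNA was not tested. Of 9 measured microRNA genes hosted in the clusters, Mir335 was the 1 that passed against control in either group. The mean over these 9 was 4.32 to 4.37 in Pax7, 4.33 to 4.42 in Pax3 and 4.52 to 4.57 in control arrays, below all array medians. Whether these probe sets read above background was not tested, so changes of the others might not be seen. Among all genes, 43.2% passed in Pax7 and 39.6% in Pax3 arrays.

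Further genes near Mest changed as well. Cep41, a centrosomal protein gene, changed by -1.42 ± 0.057 in Pax7 and by -1.01 ± 0.057 in Pax3 arrays, and Cpa4, a carboxypeptidase gene, changed by -1.83 ± 0.072 in Pax7 and by -1.25 ± 0.072 in Pax3 arrays. The Pax7 and Pax3 values of Cpa4 lay below all array medians, and whether they were above background was not tested. Copg2, a coatomer gene that overlaps the end of Mest on the opposite strand, rose by 0.19 ± 0.045 in Pax7 and 0.37 ± 0.045 in Pax3 arrays (limma adjusted p = 0.00529 and 5.02e-05). The Mest cluster, with 4 of 6 measured genes lower and 1 higher in both comparisons, had a median of -1.36 in Pax7 arrays and -0.96 in Pax3 arrays. Among all genes, 43.2% passed in Pax7 and 39.6% in Pax3 arrays, about equally in both directions.

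**Figure D3:**
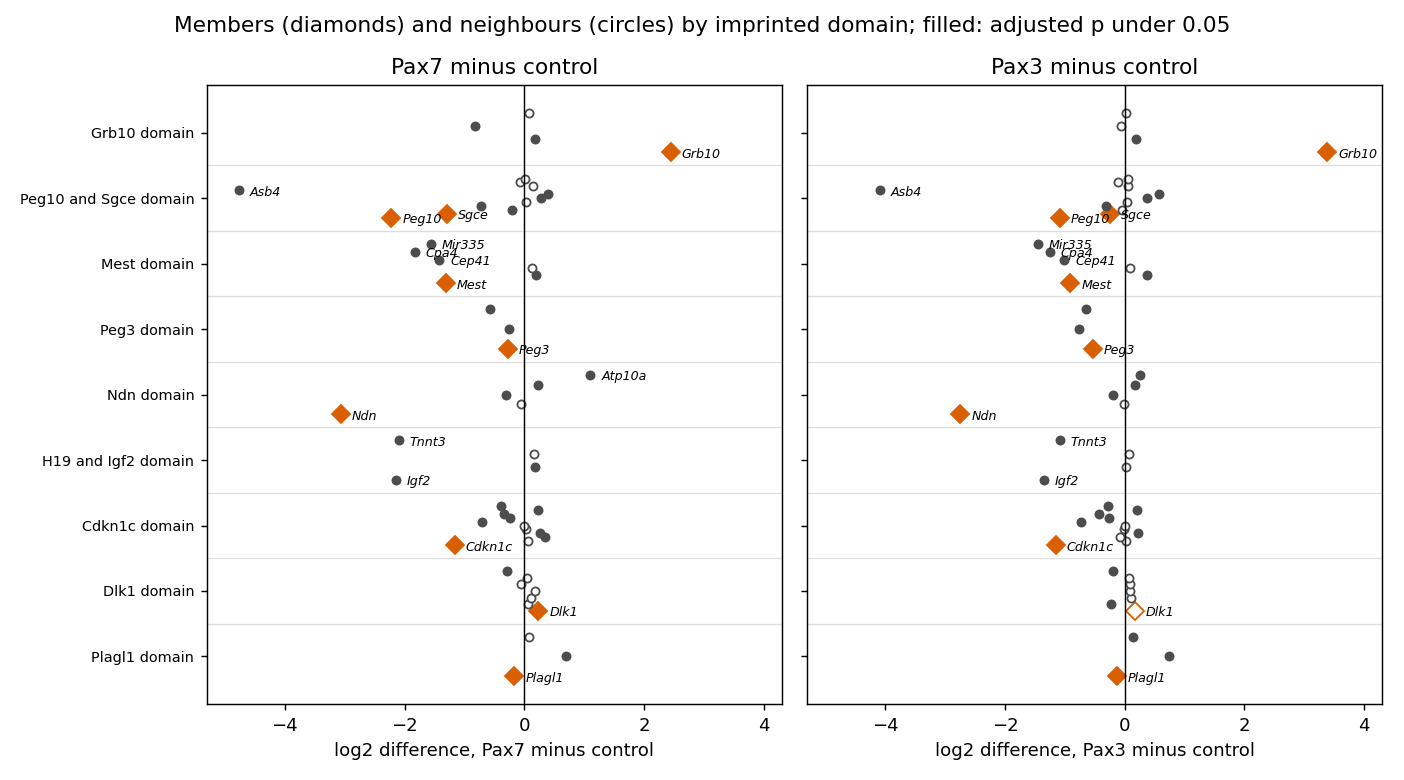
Log2 difference from control (horizontal axis) of the measured genes of 9 imprinted clusters (rows), for Pax7 on the left and Pax3 on the right; diamonds are members, circles are neighbours, and filled symbols passed at a limma adjusted p under 0.05. In the Ndn and Cdkn1c clusters no measured neighbour lies as far below control as the member, while in the Mest cluster Cep41, Cpa4 and Mir335 lie further below control than Mest.

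Cdkn1c encodes p57, a cyclin-dependent kinase inhibitor that promotes exit from the cell cycle in differentiating muscle, and is maternally expressed. It stood at 6.80, 6.93 and 6.71 in Pax7 arrays, 6.85, 6.75 and 6.87 in Pax3 arrays and 7.86, 8.13 and 7.93 in control arrays. The Pax3 arrays lay within the range of the Pax7 arrays, and both groups lay below control. The differences from control were -1.16 ± 0.077 for Pax7 and -1.15 ± 0.077 for Pax3 (limma adjusted p = 2.81e-07 and 4.18e-07). The difference between Pax7 and Pax3 was -0.01, with a 95% interval of -0.18 to 0.16 (limma adjusted p = 0.943). Ccne2, which encodes a cyclin whose kinase p57 inhibits, changed by -0.84 ± 0.080 in Pax7 and by -0.93 ± 0.080 in Pax3 arrays.

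Of 11 measured genes of the Cdkn1c cluster, 3 rose and 5 fell in Pax7 arrays (43.2% of all genes passed). In Pax3 arrays 2 of the 11 rose and 5 fell (39.6% of all genes passed). Kcnq1, a potassium channel gene whose intron holds the control region, differed by 0.06 ± 0.077 in Pax7 and 0.03 ± 0.077 in Pax3 arrays and did not pass (limma adjusted p = 0.588 and 0.83). Its values of 5.73 to 6.10 lay below all array medians (6.40 to 6.48), and whether they were above background was not tested. Phlda2, a maternally expressed gene that limits placental growth, rose by 0.35 ± 0.069 in Pax7 arrays (limma adjusted p = 0.0016) and differed by -0.07 ± 0.069 in Pax3 arrays (limma adjusted p = 0.476). The difference between Pax7 and Pax3 arrays was 0.42 ± 0.069 (limma adjusted p = 0.00149).

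Igf2, the fetal growth factor that shares its enhancers with H19, was measured in the neighbouring cluster. It stood at 10.27, 10.12 and 10.06 in Pax7 arrays, 11.00, 10.93 and 10.93 in Pax3 arrays and 12.25, 12.30 and 12.34 in control arrays, in 3 separate steps. The differences from control were -2.14 ± 0.057 in Pax7 and -1.34 ± 0.057 in Pax3 arrays (limma adjusted p = 1.74e-10 and 9.98e-09). Tnnt3, the fast skeletal troponin T gene in the same region and also a differentiation gene, was 4.28-fold lower in Pax7 arrays and 2.12-fold lower in Pax3 arrays.

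Peg3 encodes a large zinc-finger protein, transcribed from the paternal copy, with roles in p53-dependent death and in muscle stem cells of the mouse. Peg3 stood at 11.97, 11.93 and 11.96 in Pax7 arrays, 11.71, 11.73 and 11.66 in Pax3 arrays and 12.21, 12.23 and 12.23 in control arrays. The 3 groups did not overlap, and Pax3 was lowest, unlike for Ndn, Peg10, Sgce and Mest, where Pax7 was lowest. The differences from control were small, at -0.27 ± 0.040 in Pax7 and -0.53 ± 0.040 in Pax3 arrays (limma adjusted p = 0.000185 and 1.07e-06). Pax7 arrays exceeded Pax3 arrays by 0.26 ± 0.040 (limma adjusted p = 0.00104), the only rise of a member in that comparison.

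Usp29, a ubiquitin protease gene whose start lies by that of Peg3, kept that order at a dim level. Its values of 5.27 to 6.28 lay below all array medians (6.40 to 6.48), and whether they were above background was not tested. Usp29 changed by -0.26 ± 0.071 in Pax7 and by -0.76 ± 0.071 in Pax3 arrays, with Pax7 above Pax3 by 0.51 ± 0.071 (limma adjusted p = 0.000509). Zim1, a zinc-finger gene of the same cluster, changed by -0.57 ± 0.053 in Pax7 and by -0.65 ± 0.053 in Pax3 arrays, and its difference between Pax7 and Pax3 was 0.09 ± 0.053 (limma adjusted p = 0.337). All 3 measured genes of the cluster fell in both comparisons with control, as 21.5% of all genes did in Pax7 and 19.7% in Pax3 arrays.

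Dlk1 encodes a membrane protein related to Notch ligands that acts on muscle growth, and Plagl1 encodes the zinc-finger regulator named above. Both moved little. Dlk1 stood at 7.06, 7.15 and 7.30 in Pax7 arrays, 7.03, 6.98 and 7.30 in Pax3 arrays and 6.95, 6.90 and 6.95 in control arrays. Each overexpressing array lay above each control array, narrowly so for Pax3 array 2, and Pax7 and Pax3 arrays overlapped. Its difference from control was 0.24 ± 0.084 in Pax7 arrays (limma adjusted p = 0.0425) and 0.17 ± 0.084 in Pax3 arrays (limma adjusted p = 0.138, 95% interval -0.01 to 0.36). The Pax7 call was lost without control array 1, 2 or 3 (limma adjusted p = 0.0826, 0.118 and 0.0837), without Pax3 array 1 (0.0536) and without Pax7 array 2 or 3 (0.0858 and 0.168). Of its cluster neighbours, Meg3, a maternally expressed long noncoding RNA, differed by 0.07 ± 0.076 in Pax7 arrays (limma adjusted p = 0.533) whereas its Pax3 difference was -0.23 ± 0.076 (limma adjusted p = 0.0331). The Pax3 and control arrays of Meg3 overlapped, and its Pax3 call was lost with only the 6 arrays compared (limma adjusted p = 0.077), without control array 1, 2 or 3 (0.0517, 0.129 and 0.0517) and without Pax3 array 1 or 2 (0.131 and 0.0962). Rtl1 differed by 0.12 ± 0.105 in Pax7 and 0.11 ± 0.105 in Pax3 arrays and did not pass (limma adjusted p = 0.404 and 0.466). Both Meg3 (5.59 to 6.06) and Rtl1 (5.75 to 6.24) lay below all array medians of 6.40 to 6.48. Whether these levels were above background was not tested.

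Plagl1 stood at 11.18, 11.19 and 11.16 in Pax7 arrays, 11.27, 11.20 and 11.16 in Pax3 arrays and 11.35, 11.31 and 11.36 in control arrays. Control arrays were highest with no overlap, and Pax7 and Pax3 arrays overlapped. The differences from control were -0.16 ± 0.042 in Pax7 and -0.13 ± 0.042 in Pax3 arrays (limma adjusted p = 0.00817 and 0.0309). The Pax3 call was lost without control array 1 or 3 (limma adjusted p = 0.0833 and 0.0765) and without Pax3 array 2 or 3 (0.064 and 0.0726). Adcyap1r1, the receptor for the peptide PACAP and a known Plagl1 target in other cells, stood at 6.16, 6.36 and 6.33 in Pax7 arrays, 6.18, 6.10 and 6.32 in Pax3 arrays and 9.82, 9.62 and 9.91 in control arrays. Its differences from control were -3.50 ± 0.086 log2 units in Pax7 and -3.58 ± 0.086 in Pax3 arrays (limma adjusted p = 1e-10 and 1.36e-10). The Pax7 and Pax3 values of Adcyap1r1 lay below all array medians (6.40 to 6.48), and whether they were above background was not tested. Plagl1 differed by at most 0.16 in size, its protein was not measured, and whether it acts on Adcyap1r1 in these cells was not tested.

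**Figure D4:**
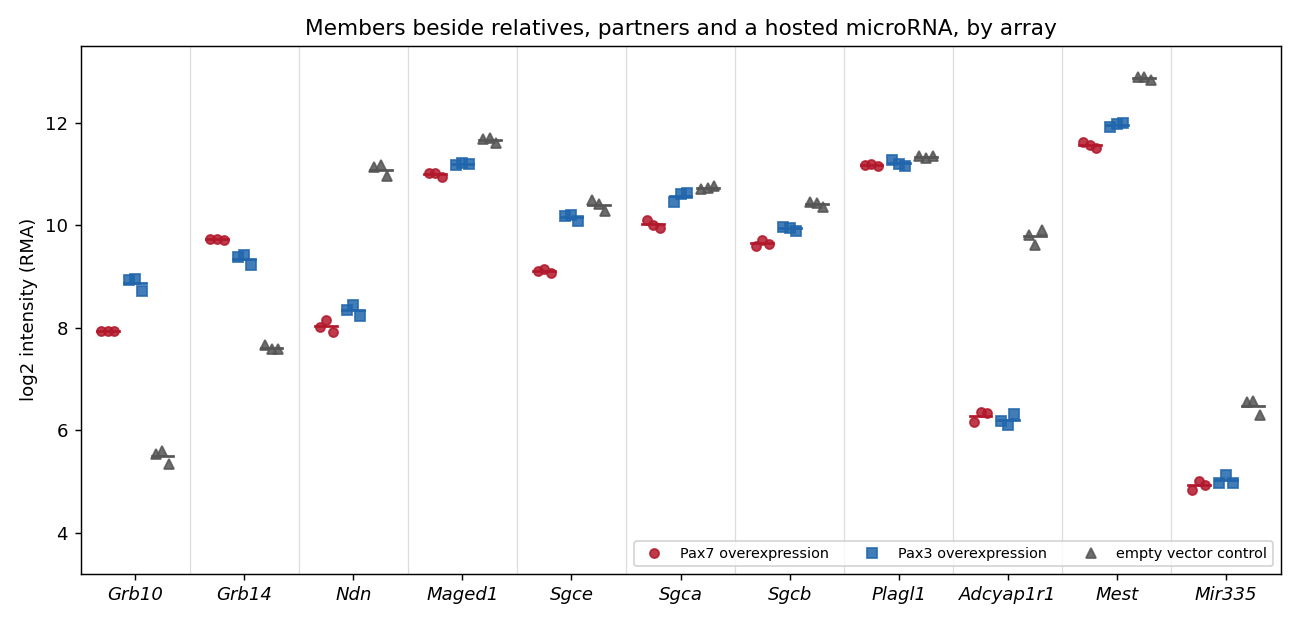
Log2 intensity (vertical axis) on every array of Grb10, Ndn, Sgce, Plagl1 and Mest, each beside relatives, a partner, a target or a hosted microRNA (horizontal axis), with Pax7 (circles), Pax3 (squares) and control (triangles) from left to right within each gene; horizontal lines are means of 3 arrays. Grb10 and Grb14 both lie above control with the opposite order of Pax7 and Pax3. Adcyap1r1 lies far below control, and Plagl1 differs little between groups.

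Imprinted genes outside these clusters split between both directions, as did all genes tested (21.6% higher and 21.5% lower in Pax7, 19.8% higher and 19.7% lower in Pax3). Of 27 measured, 10 rose and 9 fell in Pax7 arrays and 8 rose and 8 fell in Pax3 arrays, with medians of 0.019 log2 units in Pax7 arrays and 0.017 in Pax3 arrays. A call with a difference of at least 1 log2 unit was reached by 8 of 27 in Pax7 arrays (6.58% of all genes). In Pax3 arrays 6 of 27 reached it (4.8% of all genes), so large differences were not particular to the members. The largest falls were those of Ano1, a chloride channel gene, which changed by -3.53 ± 0.073 in Pax7 and by -3.53 ± 0.073 in Pax3 arrays, and of Gatm, which encodes an enzyme of creatine synthesis and changed by -3.34 ± 0.077 in Pax7 and by -2.28 ± 0.077 in Pax3 arrays. Zdbf2 changed by -2.13 ± 0.092 in Pax7 and by -1.48 ± 0.092 in Pax3 arrays. Pde10a, a phosphodiesterase gene, rose by 2.61 ± 0.067 in Pax7 and 2.38 ± 0.067 in Pax3 arrays, and Ampd3, an AMP deaminase gene, by 1.53 ± 0.045 in Pax7 and 1.38 ± 0.045 in Pax3 arrays. Several of these, such as Gatm and Ampd3, are reported as imprinted chiefly in the mouse placenta. The Pax7 and Pax3 values of Ano1 and Zdbf2 and the control values of Pde10a lay below all array medians. That these levels were above background was not tested.

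Among 27 measured factors that set or keep imprints, 3 rose and 9 fell in Pax7 arrays and 5 rose and 8 fell in Pax3 arrays, beside 43.2% of all genes called in Pax7 and 39.6% in Pax3. These shares lay near the background, and none reached 1 log2 unit in size. Zfp57, which protects methylated imprints in the embryo, rose by 0.67 ± 0.061 in Pax7 and 0.54 ± 0.061 in Pax3 arrays, and Ehmt2, a histone H3 lysine methyltransferase gene, by 0.65 ± 0.057 in Pax7 and 0.55 ± 0.057 in Pax3 arrays. Ctcf, the insulator protein that binds control regions such as that of H19 and Igf2, changed by -0.52 ± 0.055 in Pax7 and by -0.47 ± 0.055 in Pax3 arrays. Tet1, a methylcytosine oxidase gene, changed by -0.74 ± 0.078 in Pax7 and by -0.31 ± 0.078 in Pax3 arrays. Methylation was not measured.

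The genes of muscle differentiation fell together with most members. All 16 on the list fell in both comparisons with control (21.5% of all genes in Pax7 and 19.7% in Pax3 arrays). The medians were -2.75 in Pax7 and -1.53 in Pax3 arrays, and 13 of 16 were lower in Pax7 than in Pax3 arrays (8.54% of all genes). Their summed linear intensity was 6142 to 7461 in Pax7 arrays, 13828 to 14310 in Pax3 arrays and 35381 to 38916 in control arrays. Myh1, a fast myosin heavy chain gene whose probe set may share signal with its close relatives, changed by -4.25 ± 0.136 in Pax7 and by -4.14 ± 0.136 in Pax3 arrays, and Neb, which encodes nebulin, changed by -3.41 ± 0.062 in Pax7 and by -2.26 ± 0.062 in Pax3 arrays. The part of this shift in the members' values was not tested. Myh1 lay below all array medians in Pax7 and Pax3 arrays, and whether that level was above background was not tested. On the list of smooth muscle and pericyte markers, 7 of 8 genes fell in both comparisons (21.5% of all genes in Pax7 and 19.7% in Pax3 arrays). Their summed linear intensities were 5927 to 6182 in Pax7, 10152 to 10240 in Pax3 and 15284 to 15965 in control arrays. This list includes Des, also listed as a myoblast marker, so the sums hold Des signal and are not particular to other cell types. The part of these markers in the members' values was not tested.

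For the 3 members whose group means spread most, the genes nearest by Euclidean distance over the differences of Pax7 and of Pax3 from control were named. Nearest to Ndn were Trdn (distance 0.0443 log2 units), Bdkrb1 (0.0643) and Tnnc2 (0.146), of which Trdn and Tnnc2 encode triadin and fast troponin C of the muscle fibre. Trdn had 18 probe sets, and its distance is that of the brightest. Nearest to Peg10 were Lsp1 (0.018), Tnni1 (0.0659), the slow troponin I gene, and Cmah (0.0771). Grb10 had no neighbour as close, with Cdh6 (0.402), Hoxd8 (0.524) and Slc40a1 (0.544), the iron exporter ferroportin, nearest. The likeness was taken over 9 arrays in 3 groups and describes these arrays only.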

How the data were processed

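Total RNA of cultured mouse myoblasts was labelled with biotin and read on 9 Affymetrix arrays, per the labels. The authors deposited log2 intensities of 25668 probe sets, made with RMA in R 2.10.0 per the submitters' processing notes. RMA corrects background, quantile-normalises the arrays and summarises probes by median polish. The values of some probe sets are identical on several arrays. Array medians lay between 6.40 and 6.48. The sources used here do not give any filter, genome build or annotation behind the values.

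Probe sets were named from the platform annotation: 20777 had 1 symbol, 232 several and 4659 none. Each of 19661 genes kept its brightest probe set by mean over the arrays, a choice for 564 genes and for 0 members. Genes overlapping another transcript, such as Mest with Copg2 and Mir335, can share signal, and levels were not compared between probe sets. Promoters and microRNAs came from RefSeq tables of GRCm38.p6 and carry no measurement here.

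Group means were fitted over the 9 arrays in limma 3.58.1 under R 4.3.3 (lmFit and eBayes, residual df 6, prior df 4.37), with Benjamini-Hochberg adjusted p under 0.05 as the threshold. Errors of differences are moderated standard errors. The fit was tested on simulated data. The smallest p an exact test of 3 against 3 arrays allows is 0.1, so no such test was run. No array was dropped and no value imputed.

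The members, gene lists and naming rule were chosen with earlier results of these data known. All members are named. From each other list up to 6 genes past the threshold with the largest difference from control are eligible, with fixed cluster neighbours (Igf2, Meg3, Rtl1, Magel2, Copg2, Kcnq1, Phlda2, Casd1, Asb4, Usp29 and Zim1), genes that check the labels and the 3 genes nearest to 3 members. Myod1, Myf5 and Des were added as myoblast markers after their values were seen. The grouping of neighbours into clusters was made after the values were seen. Same-numbered arrays of different groups deviated together with r = -0.026 to 0.225 over 9 pairs, against -0.247 to 0.246 over 18 other pairs, so the numbers were not treated as pairs. Alternatives were another scaling, filter, prior, array weighting, probe set rule, a test against a fold of 1.2, the replicate block and leaving out each array.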

Additional observations from a re-analysis of the deposited data

How the results depend on the processing

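Over 513 combinations of a member, a comparison and an alternative, 482 kept their direction and side of the threshold, 26 lost the call and 5 changed sign. The calls lost outside the test against a fold of 1.2 were those of Dlk1 (Pax7 against control, limma adjusted p = 0.0533 after median centring and 0.0656 after renormalisation), Plagl1 (Pax3 against control, 0.0688 with the 6 arrays compared and 0.083 with array weights) and, on leaving out an array, Dlk1, Plagl1 and Ndn as given above. Other named genes lost 37 calls in 1650 combinations, 13 of them against the fold and 24 for Meg3, Sgca and Ezh2 in Pax3 against control under other settings. With the replicate block, Sgca (limma adjusted p = 0.0545) and Ezh2 (0.0749) were lost. The sign changes were in differences that had not passed. In Pax7 minus Pax3, Cdkn1c was 0.0048 after median centring and -0.0728 to 0.0393 on leaving out an array, positive without Pax3 array 1 (0.0002), Pax3 array 3 (0.0091) or Pax7 array 3 (0.0393). Dlk1 was -0.0014 to 0.1601, negative without Pax7 array 3. Among neighbours in Pax3 minus control, Kcnq1 was -0.0014 after centring, -0.0157 with array weights and -0.0716 to 0.1092 on leaving out an array, and Rtl1 was -0.0196 with array weights and -0.0271 to 0.2195. Magel2 was -0.0692 to 0.0209, with 0.0174 without Pax3 array 2, and Phlda2 was -0.141 to 0.0063. The cause was not tested.

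In Pax7 against control limma called 8485 genes and 9 members, which became 3819 and 6 against a fold of 1.2, 8707 and 9 with the replicate block, and 7519 to 9253 and 8 to 9 on leaving out 1 array. In Pax3 against control the 7780 genes and 8 members became 3264 and 6 against the fold, 7902 and 8 with the replicate block, and 6903 to 7753 and 7 to 8 on leaving out 1 array. In Pax7 against Pax3 the 3316 genes and 6 members became 784 and 3 against the fold, 3328 and 6 with the replicate block, 2507 to 4277 and 5 to 6 on leaving out 1 array, and 5348 genes with array weights. In all 3 comparisons the highest gene count on leaving out 1 array was that without Pax3 array 3. That array had the lowest weight, 0.27, against 2.36 for Pax3 array 1. The gene list counts moved by over 1.5 times in 51 of 684 recomputed values, 18 of them under the test against a fold. With 3 arrays a group and intensities that have no true zero, the number of arrays limits the precision.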

Other observations

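Nnat, an imprinted gene on the list of others, had the same value of 5.84 on all 9 arrays in the deposited table and could show no difference. Values were identical on all 3 arrays of a group for 362 genes in Pax7, 340 in Pax3 and 264 in control arrays. Among leukocyte markers, 2 of 7 measured rose in both comparisons with control (21.6% of all genes in Pax7 and 19.8% in Pax3 arrays). These were Cd68, which rose by 2.04 ± 0.060 in Pax7 and 1.36 ± 0.060 in Pax3 arrays, and Laptm5, by 1.48 ± 0.090 and 2.08 ± 0.090. Of 8 adipocyte markers, 4 rose and 1 fell in Pax7 arrays and 2 rose and 1 fell in Pax3 arrays, and of 8 endothelial markers 2 rose in Pax7 and 1 rose in Pax3 arrays. Among all genes, 21.6% rose and 21.5% fell in Pax7 arrays and 19.8% rose and 19.7% fell in Pax3 arrays. Cd68 and Laptm5 were chosen after their values were seen.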
